A study of Mus musculus with 12 samples.

Results

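Nr5a2, Cebpb, Foxo1, Ppara and Hnf4a are transcription factors that set the rates of bile acid, glucose and fatty acid metabolism in the liver. They were taken by name from a focused array, where each had 1 spot, and make up 5 of its 330 genes. None of the 5 passed the test between mice on a high-fat diet and mice on that diet with fucoidan. The 3 factors read from sound spots (Nr5a2, Cebpb and Foxo1) had lower means with fucoidan, by 0.17 to 0.43 log2 units. The other 2, Ppara and Hnf4a, had higher means, but from spots whose listed difference was not foreground minus background.

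Nr5a2 is an orphan nuclear receptor that acts with Hnf4a, a nuclear receptor of hepatocyte identity, at genes of bile acid synthesis. Cebpb is a leucine zipper factor of the acute phase response and of gluconeogenesis. Foxo1 is a forkhead factor that insulin drives out of the nucleus, and in the fasted liver it turns on genes of glucose output. Ppara is a nuclear receptor for fatty acids that pairs with a retinoid X receptor and turns on genes of fatty acid oxidation. All 5 proteins are controlled in part after translation or by ligands, so the amount of a factor's mRNA is only a portion of what sets its activity.

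Liver RNA came from 12 male ApoEshl mice, aged 7 to 8 weeks by the labels and fed for 12 weeks. Both groups thus share the spontaneous Apoe defect of this line, which lacks normal apolipoprotein E. In the HFD group 6 mice ate a high-fat diet, and in the fucoidan group 6 mice ate it with 5% fucoidan, a sulphated polysaccharide of brown algae. The comparison asks what fucoidan changes in the liver under a high-fat diet. Each mouse was hybridised alone in 1 colour, so the number of arrays limits the precision.

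The median foreground of the gene spots ran from 168 to 232 over the 12 arrays, and 195 to 210 of 354 gene spots exceeded the detection limit of their array (the mean plus 2 SD of 41 control and empty spots). All 8 hepatocyte markers on the array were above that limit. Of 9 adipocyte markers 6 never exceeded it, among them Adipoq, Lep and Plin1, while Cfd and Fabp4 did on all 12 arrays and Pparg on 5. Cfd fell, with a difference of −0.60 (adjusted p = 0.00603 in limma); its spot's listed difference is not foreground minus background. Neither muscle marker exceeded the limit. The summed foreground of the 8 hepatocyte markers ran from 98272 to 305944 with HFD and from 94597 to 134809 with fucoidan. That of 3 macrophage and leukocyte markers ran from 1284 to 21594 and from 1795 to 2528. Of these markers 4 and 1 were on spots that failed the check given below. Cyp7a1 and Cyp8b1, among the 4, list nearly the same readings. Over sound spots alone, 4 hepatocyte markers summed to 39532 to 62261 with HFD and 52804 to 75960 with fucoidan. The 2 macrophage and leukocyte markers on sound spots, Cd36 and Tnf, summed to at most 1493 and 1764. Tnf never exceeded the limit, so that sum rests mostly on Cd36, which is also on the list of Ppara targets used below. The part of these cell types in the results was not tested. All HFD arrays lay on the first 12 blocks of 1 slide and all fucoidan arrays on the rest, so position and diet cannot be told apart.

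On 41 of the 354 gene spots the listed difference departed from foreground minus background by more than 0.5 on at least 1 array, or a value was missing or beyond the scanner's range. These are called failed spots. The spots of Nr5a2, Cebpb and Foxo1 passed on all 12 arrays, the Ppara spot failed on all 12 and the Hnf4a spot on 10 of 12. Of the 41 failed spots 13 repeated the background of another spot on all 12 arrays, as did 12 of the 313 gene spots that passed. No spot shared its background with a factor's spot on more than 4 arrays, nor its foreground on more than 1.

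Levels are given first as foreground minus local background in raw intensity units, then as normalised log2 intensity. A gene passed when its adjusted p in limma, over the 181 genes that exceeded the detection limit on 6 or more arrays, was under 0.05. By that rule 0 of the 5 factors passed, against 8.29% of all genes tested. For none of the 5 did the groups separate without overlap, which 6.08% of the genes did. At an unadjusted p under 0.05, 1 factor (Nr5a2) passed, against 22.1% of the genes.

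**Figure D1:**
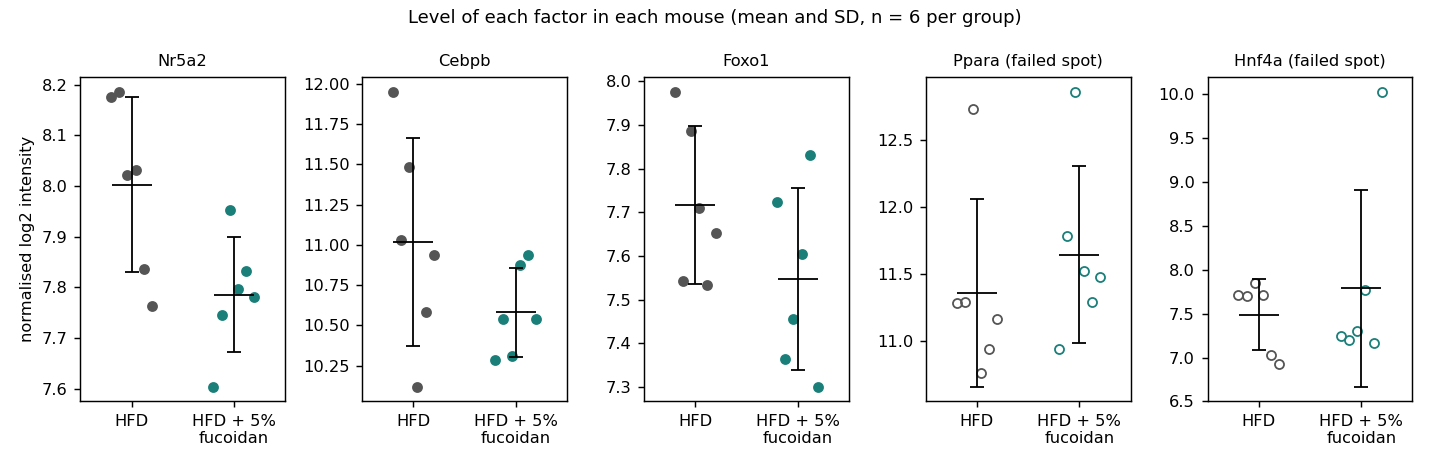
Normalised log2 intensity (vertical axes, a separate scale in each panel) of the 5 factors in each of 6 HFD and 6 fucoidan mice, with the mean and SD as crosses and open points for failed spots. The groups overlap in every panel, and 1 mouse in each Ppara group and 1 fucoidan mouse for Hnf4a lie far above the rest.

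Nr5a2 lies at chr1:136842562-136960448 (GRCm38.p6, gene ID 26424). Its raw difference was 104 at the lowest, 138.5 at the median and 176 at the highest in the HFD group. In the fucoidan group the same values were 79, 109.5 and 189. Most fucoidan mice were thus dimmer, yet the brightest of all 12 was fucoidan replicate 3. The spot was dim, with a foreground 1.81 to 2.87 times its background, but above the detection limit on all 12 arrays.

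After normalisation the log2 level of Nr5a2 was 7.76 at the lowest, 8.03 at the median and 8.19 at the highest with HFD, and 7.60, 7.79 and 7.95 in the fucoidan group. All 6 fucoidan mice were below the HFD mean, 2 were below the lowest HFD mouse, and the groups overlapped. The means were 8.00 ± 0.17 and 7.79 ± 0.11 (SD, n = 6 each). Their difference was −0.22 (SE 0.09, 95% interval −0.41 to −0.02, adjusted p = 0.159 in limma, two-sided exact permutation p = 0.026, the latter adjusted to 0.147 over all genes tested). Here and below, fewer cells of a type and less RNA per cell cannot be told apart.

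With the failed spots left out before normalisation the difference of Nr5a2 was −0.26 (SE 0.09, 95% interval −0.46 to −0.06). Its limma p was 0.0153 before adjustment and 0.277 after it, over 147 genes. Of those 147 genes, 10.2% had an unadjusted p under 0.05, 3.4% in the lower direction, and 0% passed after adjustment. The median difference of all 147 was 0.00, which the normalisation largely sets. With all spots, all 7 housekeeping genes tested were higher with fucoidan, at a median of 0.19. Gapdh among them passed, at 0.41 (adjusted p = 0.0317 in limma). Without the failed spots 5 housekeeping genes were higher and 2 lower, at a median of 0.07, and Gapdh was at 0.07 (adjusted p = 0.652 in limma). The cause of this shift was not tested. Scaling each array to its housekeeping genes moved the median of all tested genes from 0.05 to −0.12. The difference of Nr5a2 moved to −0.41, which also did not pass (adjusted p = 0.0935 in limma). Without normalisation between arrays it was −0.20 (unadjusted p = 0.191 in limma). Without background correction it was −0.19 (unadjusted p = 0.0582 in limma), so the unadjusted p under 0.05 depends on the processing.

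Cebpb lies at chr2:167688915-167690432 (gene ID 12608), and its spot was bright, at 12.2 to 30.5 times background. The raw difference was 1179, 1762 and 2891 at the lowest, median and highest with HFD, and 1098, 1634.5 and 2170 in the fucoidan group. The raw medians lay close together, and the widest distance was at the top of the HFD group. In normalised log2 levels the HFD group held 10.12, 10.98 and 11.95 and the fucoidan group 10.28, 10.54 and 10.94. All 6 fucoidan mice were below the HFD mean but none was below the lowest HFD mouse.

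The mean of Cebpb was 11.02 ± 0.65 with HFD and 10.58 ± 0.28 with fucoidan (SD, n = 6 each). A difference of −0.43 (SE 0.26, 95% interval −1.01 to 0.14) did not pass (adjusted p = 0.361 in limma, two-sided exact permutation p = 0.167). It was −0.48 without the failed spots. HFD replicate 1, the highest Cebpb level of all, weighed most: without it the difference was −0.24. Without normalisation between arrays it was −0.17. In normalised levels the HFD mice spanned 3.55-fold in Cebpb and the fucoidan mice 1.57-fold. The raw difference, from 1179 to 2891 with HFD and from 1098 to 2170 with fucoidan, gave a narrower contrast. Neither contrast of spread was tested.

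Foxo1 lies at chr3:52268337-52350109 (gene ID 56458). Its raw difference was 63, 112.5 and 118 at the lowest, median and highest with HFD and 33, 89 and 112 in the fucoidan group. This was a dim spot, at 1.35 to 2.17 times background, above the detection limit on all 12 arrays. The normalised log2 levels were 7.53, 7.68 and 7.98 with HFD and 7.30, 7.53 and 7.83 in the fucoidan group. Of the fucoidan mice 4 of 6 were below the HFD mean and 3 below the lowest HFD mouse, so the groups overlapped.

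The mean of Foxo1 was 7.72 ± 0.18 with HFD and 7.55 ± 0.21 with fucoidan (SD, n = 6 each). A difference of −0.17 (SE 0.11, 95% interval −0.42 to 0.08) did not pass (adjusted p = 0.400 in limma, two-sided exact permutation p = 0.165). It was −0.20 without the failed spots, −0.37 after scaling to housekeeping genes and −0.16 without normalisation between arrays. The intervals of Foxo1 and Cebpb include 0 as well as differences larger than the one measured for Nr5a2.

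Ppara lies at chr15:85734910-85806851 (gene ID 19013), and its values come from a spot that failed on every array. The listed difference was between 180 below and 44 above foreground minus background, small beside the signal, which was 19.4 to 87.7 times background. Foreground minus background was 1530, 2034 and 7543 at the lowest, median and highest with HFD, and 2243, 2664.5 and 7760 in the fucoidan group. Replicate 3 of each group held the top value, and the next highest values were 2093 with HFD and 2833 with fucoidan.

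In normalised log2 levels Ppara was 10.76, 11.22 and 12.73 with HFD and 10.94, 11.50 and 12.86 in the fucoidan group. The fucoidan mice were above the HFD mean in 4 of 6 cases. The means of 11.36 ± 0.70 and 11.65 ± 0.66 (SD, n = 6 each) differed by 0.28 (SE 0.36, 95% interval −0.50 to 1.07, adjusted p = 0.651 in limma, two-sided exact permutation p = 0.463). The difference was 0.56 without HFD replicate 3 and 0.04 without fucoidan replicate 3. With the listed difference in place of foreground and background it was 0.25. With the failing values left out Ppara has no value on any array.

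Hnf4a lies at chr2:163506811-163572907 (gene ID 15378). Its spot was above the detection limit on 8 of 12 arrays, 4 in each group, and failed on 10. Foreground minus background was 9, 89 and 116 at the lowest, median and highest with HFD and 33, 66 and 804 in the fucoidan group. The listed difference gave 78, 96.5 and 126 with HFD and 74, 114.5 and 844 with fucoidan. By the computed values the fucoidan median was below the HFD median, and by the listed values above it. The listed value exceeded the computed one by as much as 80 units, in HFD replicate 6 and in fucoidan replicates 2, 3 and 5, which is near the size of the signal itself. Fucoidan replicate 6 stood apart in both.

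**Figure D2:**
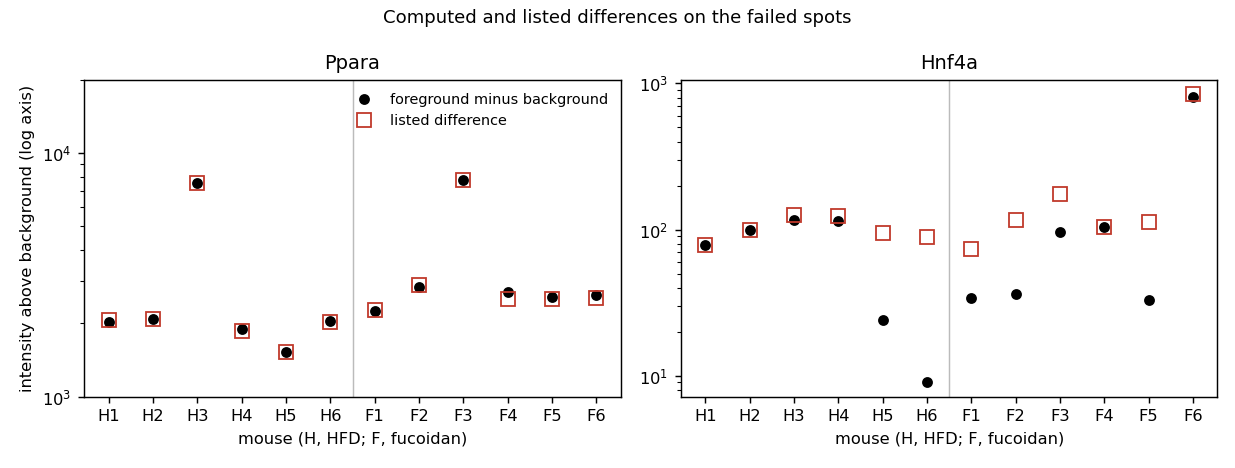
Intensity above background (log axes, a separate scale in each panel) of Ppara and Hnf4a in each mouse, as foreground minus background (filled circles) and as the listed difference (open squares), with H for HFD and F for fucoidan. For Ppara the symbols nearly coincide, with replicate 3 high in both groups. For Hnf4a they part in several mice, as in HFD replicate 6 at 9 and 89.

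The normalised log2 level of Hnf4a was 6.93, 7.70 and 7.85 at the lowest, median and highest with HFD and 7.17, 7.27 and 10.03 in the fucoidan group. Only 2 of 6 fucoidan mice were above the HFD mean. The means of 7.49 ± 0.40 and 7.79 ± 1.12 (SD, n = 6 each) differed by 0.30 (SE 0.44, 95% interval −0.66 to 1.26, adjusted p = 0.692 in limma, two-sided exact permutation p = 0.777). Without fucoidan replicate 6 the sign turned, to −0.15. With the listed difference it was 0.59 (adjusted p = 0.510 in limma). The sign of the Hnf4a difference thus depended on 1 mouse, and with the failing values left out 1 array per group remained, too few for a fit.

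In normalised log2 levels the 5 factors differed in how far mice of 1 group spread. The SD within groups was 0.15 log2 units for Nr5a2, lower than that of all but 24.3% of tested genes. It was 0.20 for Foxo1, near the median of 0.22 over tested genes. For Cebpb it was 0.50 and exceeded that of 83.4% of tested genes. On the failed spots it was 0.68 for Ppara and 0.84 for Hnf4a, above 91.2% and 94.5% of tested genes. Nr5a2 also had the smallest standard error of the 5. The processing draws differences of dim genes such as Nr5a2 and Foxo1 towards 0. In raw foreground minus background over all 12 arrays, the SD was 27.4% of the mean for Nr5a2, 30.6% for Foxo1 and 30.1% for Cebpb. The contrast in spread between Cebpb and the 2 dim factors thus depends on the scale.

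**Figure D3:**
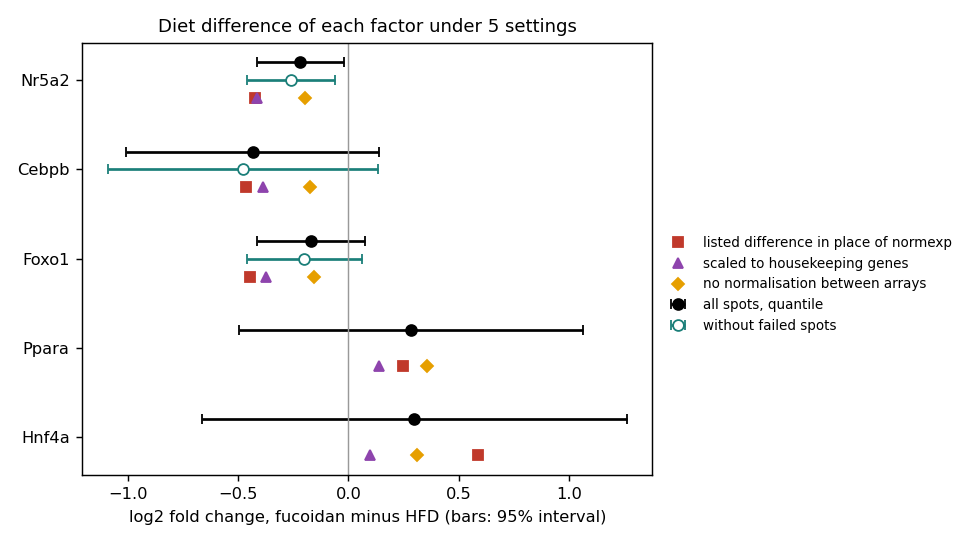
Log2 fold change, fucoidan minus HFD (horizontal axis), of each factor with all spots and without the failed spots (circles with 95% intervals), and as points under 3 other settings. Nr5a2, Cebpb and Foxo1 lie below 0 in every setting drawn, and only the intervals of Nr5a2 leave out 0, before any adjustment for the 181 genes tested.

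**Figure D4:**
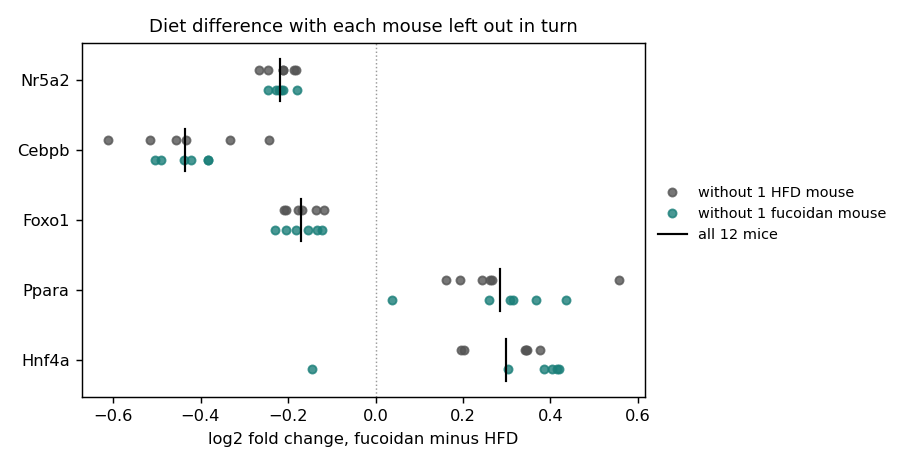
Log2 fold change, fucoidan minus HFD (horizontal axis), of each factor with 1 mouse left out in turn, beside the value from all 12 mice (black bars). Nr5a2 stays between −0.27 and −0.18 and Foxo1 between −0.23 and −0.12, while Ppara moves from 0.04 to 0.56 and Hnf4a crosses 0.

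Across the 12 mice, Cebpb and Foxo1 had the highest correlation among the 10 pairs of factors (Pearson r = 0.62 over all arrays, 0.53 for deviations from the group means). Nr5a2 and Cebpb followed over all arrays at 0.53 (0.37 for deviations). For deviations Nr5a2 and Ppara were second, at 0.41, with 0.17 over all arrays. Pairs share arrays and their normalisation, so these are descriptions with no test. The genes whose level ran most like each factor were found by Pearson r among the other 180 tested genes. As the highest of 180, they too are given with no test.

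For Cebpb the nearest was Nfkbia, the inhibitor of NF-kappaB, with r = 0.86 over 12 arrays and 0.83 for deviations from the group means. Spearman's rho was 0.85, and r was 0.64 without HFD replicates 1 and 3, the arrays farthest from the Cebpb median. Cdkn1a (0.75, on a failed spot) and Stat3 (0.74) followed, but fell to 0.26 and 0.33 without those arrays. Nfkbia was also nearest to Foxo1 (r = 0.68, rho 0.57, and 0.60 without the 2 farthest arrays). Srebf1, on a failed spot, had r = 0.63 with Foxo1.

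Among the genes nearest to Nr5a2 were Acat3 (r = 0.70, rho 0.78) and Cdkn1a (0.66, rho 0.61). For deviations from the group means the values were 0.47 and 0.36, so a portion of this likeness lay between the diets. Without HFD replicates 1 and 2, the arrays farthest from the Nr5a2 median, r was 0.66 with Acat3 and 0.37 with Cdkn1a. The Cdkn1a spot failed. Among those nearest to Ppara were Mapk8 (0.78, on a spot that repeats the background of the Rps18 spot on all 12 arrays and its foreground and listed difference on 8) and Clu (0.54), and to Hnf4a Mapk14 (0.66) and Lipc (0.58). Without the 2 arrays farthest from the factor's median, Mapk8 and Clu kept r of 0.65 and 0.63 with Ppara, while Mapk14 and Lipc dropped to 0.39 and 0.27 with Hnf4a, so the Hnf4a likenesses rest largely on those mice.

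The array held 26 of 54 listed transcription factors and coregulators of hepatic metabolism, and 14 of them were tested. Of the 14, 1 rose and 0 fell, against 3.87% of all tested genes that rose and 4.42% that fell. Their median difference was −0.13, with 8 lower and 6 higher, and that of all genes 0.05. Jun, a subunit of AP-1, rose by 1.54 (SE 0.22, adjusted p = 7.65e-04 in limma), from 10.54 ± 0.56 to 12.08 ± 0.12 (SD, n = 6 each). Its spot failed and repeats the background of the Rps18 spot on all 12 arrays.

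Srebf1, the factor of fatty acid synthesis, had the lowest value of the 14, at −0.60 on a failed spot (adjusted p = 0.0825 in limma, and 0.0254 at −1.04 after scaling to housekeeping genes). Cebpb came next, followed by Stat3, a factor of cytokine signalling, at −0.31 (adjusted p = 0.372 in limma). Without the failed spots 9 of the 14 were left, of which 7 were lower and 0 passed, with a median of −0.17. Over all 147 genes left, 71 were lower. The other 12 factors on the array were not tested, because they exceeded the detection limit on fewer than 6 arrays. They include Pparg, above it on 5 arrays, Foxa2 on 3, and Ppargc1a, Ppard and Cebpd on 0.

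**Figure D5:**
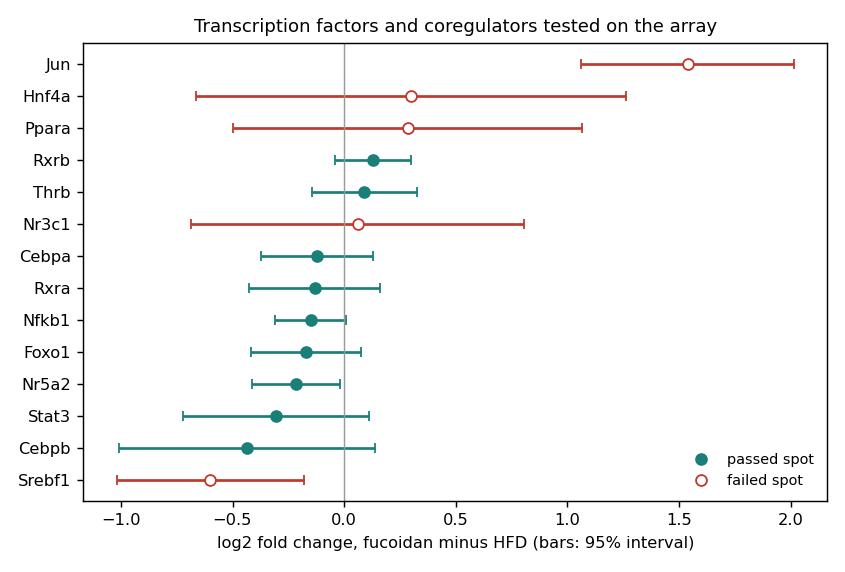
Log2 fold change, fucoidan minus HFD (horizontal axis), with 95% intervals for the 14 transcription factors and coregulators tested, sorted by value, with open symbols for failed spots. Jun at 1.54 is the only one past the threshold, and Nr5a2, Foxo1 and Cebpb are among the 8 below 0.

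Known target genes of each factor were read from the same arrays. Over all 181 genes tested 8.29% passed, 72 were lower with fucoidan and the median difference was 0.05, and the counts of these short lists stand beside those values. Of 4 Nr5a2 targets on the array 3 were tested. Cyp7a1, the first enzyme of bile acid synthesis, and Cyp8b1, which directs it to cholic acid, fell, with differences of −2.51 and −2.61 (adjusted p = 0.00162 and 0.0015 in limma). Both rest on failed spots that list the same background on all 12 arrays, the same foreground on 11 and the same difference on all 12, so they amount to 1 set of readings rather than 2 genes measured apart. HFD replicate 1 reached 15.81 against an HFD median of 13.28. Apoa1, of high-density lipoprotein, differed by 0.62 (adjusted p = 0.0636 in limma), and by −0.02 after scaling to housekeeping genes. With the failed spots left out, Apoa1 alone was left, at 0.12 (adjusted p = 0.599 in limma).

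The same enzymes are Hnf4a targets. All 10 Hnf4a targets on the array were tested, and besides these 2, 0 passed. The median over the 10 was 0.22, with 7 higher and 3 lower, where Cyp7a1 and Cyp8b1 count as 2 members in spite of their shared readings. Without the failed spots 6 were left, with a median of 0.16 and 0 past the threshold. G6pc, the glucose-releasing phosphatase that Hnf4a, Foxo1 and Cebpb all regulate, was at −0.49 on a failed spot (adjusted p = 0.0835 in limma).

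Of 7 Cebpb targets on the array 4 were tested and 0 passed, against 8.29% of all genes. All 4 had negative values. The largest was Ccl2, a monocyte chemokine, at −0.77 on a failed spot, and −0.11 without HFD replicate 5. Cebpa at −0.12 and Crp at −0.09 turned to 0.03 and 0.05 without normalisation between arrays, so the shared direction depends on the scaling.

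Of 9 Foxo1 targets 6 were tested, and 1 rose, against 3.87% of all genes, while 3 of 6 were lower. Igfbp1, a liver protein that binds insulin-like growth factors, was 11.54, 11.68 and 11.88 at the lowest, median and highest with HFD and 11.48, 12.66 and 12.80 in the fucoidan group. It rose by 0.80 (SE 0.19, adjusted p = 0.0246 in limma), with 5 of 6 fucoidan mice above the HFD mean. Its spot passed, but it repeats the background of the Hsd11b1 spot on all 12 arrays and its foreground on 0. The test was lost on leaving out 1 mouse in 6 of 12 cases, and without the failed spots the difference was 0.60 (adjusted p = 0.277 in limma). After scaling to housekeeping genes Igfbp1 was at 0.50 (adjusted p = 0.241 in limma). Without normalisation between arrays it was at 0.72 (adjusted p = 0.0942 in limma), so it passed in neither. Its exact permutation p was 0.105 after adjustment. Pdk4, a kinase that holds back glucose oxidation, was at −1.21 on a failed spot (adjusted p = 0.304 in limma), and −0.53 without HFD replicate 3. Pnpla2, a triglyceride lipase, was at −0.29, and at 0.01 without HFD replicate 6.

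Of 15 Ppara targets on the array 13 were tested, of which 2 rose and 0 fell, against 3.87% and 4.42% of all genes. The median was 0.09, with 8 higher and 5 lower. Acsl1, which activates long-chain fatty acids, was 11.38, 11.70 and 11.95 at the lowest, median and highest with HFD and 11.89, 12.45 and 12.73 in the fucoidan group. It rose by 0.69 (SE 0.15, adjusted p = 0.0122 in limma) and all 6 fucoidan mice were above the HFD mean. After scaling to housekeeping genes Acsl1 was at 0.41 (adjusted p = 0.109 in limma). Without normalisation between arrays it was at 0.62 (adjusted p = 0.0849 in limma), so it passed in neither. Its exact permutation p was 0.056 after adjustment. Pdk4, named above with the Foxo1 targets, is on this list too and had the largest absolute difference of the 13. It was lower with fucoidan, at −1.21 on a failed spot (adjusted p = 0.304 in limma). Fabp1, the liver fatty acid carrier, was at 0.32 on a failed spot (adjusted p = 0.239 in limma). Without the failed spots 10 of the 13 were left and 0 passed, with Acsl1 at 0.42 (adjusted p = 0.277 in limma).

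Promoters of the tested targets were searched on both strands for a motif of their factor, in RefSeq windows (GRCm38.p6) from 250 bases before to 50 after the gene's start. The Nr5a2 motif CAAGGNCA occurs in 6.71% of 32851 such windows and in 1 of 2 targets with a window. The Hnf4a motif CAAAGTCCA occurs in 0.475% of windows and in 1 of 8 targets. In both cases the target is Cyp8b1, where the motifs overlap, the Hnf4a motif from −67 to −59 and the Nr5a2 motif from −60 to −53. The Foxo1 motif CAAAACA occurs in 6.28% of windows and in 2 of 5 targets, Igfbp1 and G6pc. The Cebpb motif TTGCNNAA occurs in 10.8% of windows and in 0 of 3 targets, and the Ppara motif, the direct repeat of AGGTCA with 1 base between, in 0.0396% and in 0 of 9. A match describes the letters and shows no binding.

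Shown are 120 bases of the promoters of Cyp8b1 and Igfbp1, the targets that both hold a motif of their factor and passed the test, with the motifs in capitals (for Cyp8b1 the overlapping Hnf4a and Nr5a2 motifs, for Igfbp1 the Foxo1 motif). Cyp8b1 is at chr9:121916306-121916425 on the minus strand and Igfbp1 at chr11:7197667-7197786 on the plus strand, each read 5′ to 3′.
Cyp8b1: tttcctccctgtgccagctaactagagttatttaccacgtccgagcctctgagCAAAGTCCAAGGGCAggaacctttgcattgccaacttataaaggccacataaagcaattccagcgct
Igfbp1: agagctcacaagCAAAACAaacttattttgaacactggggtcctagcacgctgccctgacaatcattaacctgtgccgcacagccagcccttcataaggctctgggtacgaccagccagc
In these mice Cyp8b1 fell, on a failed spot with the readings of Cyp7a1. Igfbp1 rose, though it did not pass after scaling to housekeeping genes. The factors that bear these motifs' names (Nr5a2, Hnf4a and Foxo1) did not pass the test.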

How the data were processed

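Per the labels' protocols, 10 micrograms of liver RNA per mouse were labelled for a focused cDNA array. A GenePix scanner 4000B read the slide at 532 nm and GenePix Pro 6.0.1.27 quantified it, per the file headers. The deposited table holds linear intensity (the foreground, the local background and a listed difference of each spot), not scaled between arrays. Later steps by the authors are not given in the sources used here. The deposited value table, also intensity, carries no gene names and was not used. Groups come from the labels, and 0 sample columns were unused.

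Background was corrected by normexp (offset 50, on all 396 spots) in limma 3.58.1 under R 4.3.3. Intensities were then quantile normalised over 354 gene spots, and averaged per probe and gene as log2. These steps draw differences of dim genes towards 0. Names were matched to RefSeq symbols (315 current, 15 by synonym). Limma (lmFit, eBayes, two-sided) was adjusted by Benjamini-Hochberg over 181 genes. Beside it stands a two-sided exact permutation test of the means, whose smallest p is 0.00216. Parsing, motifs and figures used Python 3.11.15. The p-values set the difference between the groups against the spread between these samples. Block position follows diet throughout, so they cannot tell position from diet.

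The members, gene lists, motifs and alternatives were chosen with earlier results of these data known. From each list the text names up to 4 members of largest absolute difference and any past the threshold, and for each factor the 3 genes of highest Pearson r. Some genes that this rule takes are not reported here and stay in the counts. In 20 simulated tables of 147 genes, for the comparison without failed spots, the test recovered 0.743 of differences of 0.5 and 0.947 of differences of 1, with 0.115 of calls false. Alternatives covered background correction, normalisation, detection filter, failed spots, array weights, priors, the replicate block and leaving out each array. Slide and block position could not be fitted.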

Additional observations from a re-analysis of the deposited data

Results flagged for a closer look

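For Ppara, HFD replicate 3 stood apart from the other HFD mice in normalised log2 level: its gap to the next mouse was 0.733 of the group's range, above Dixon's critical value for 6 samples. Fucoidan replicate 3 was also the highest of its group for Ppara, with a gap of 0.559, below that value. For Hnf4a, fucoidan replicate 6 stood apart with a gap of 0.789. Both spots failed the check of the listed difference. In all 10 groups of 6 mice were checked, and chance marks about 1 in 20 such groups. Of the 6 groups of Nr5a2, Cebpb and Foxo1, none was marked by this criterion, the widest gap being 0.405.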

How the results depend on the processing

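The differences of Nr5a2, Cebpb and Foxo1 kept their negative sign under all 32 alternatives run for each (Nr5a2 −0.43 to −0.18, Cebpb −0.61 to −0.17, Foxo1 −0.45 to −0.12) and passed under 0 of them in limma or the exact permutation test. Ppara was positive under all 26 (0.04 to 0.56). Hnf4a was positive under 24 of 25, and −0.15 without fucoidan replicate 6. These counts include settings that change the test but not the levels, so they could not change a sign. They are the exact permutation test, the priors, the replicate block and the detection filters. Leaving out 1 mouse gave Nr5a2 −0.27 to −0.18, Cebpb −0.61 to −0.24, Foxo1 −0.23 to −0.12, Ppara 0.04 to 0.56 and Hnf4a −0.15 to 0.42. The 15 genes that passed became 25 with the listed difference, 27 at an adjusted p of 0.1, 3 with failing values missing and 9 to 17 without 1 mouse (9 without HFD replicate 3 or 5). With the failed spots left out, 0 of 147 passed in limma (15 at an unadjusted p under 0.05). The same 0 came from 4 settings chosen after seeing the data: the exact permutation test, no normalisation between arrays, no background correction and scaling to housekeeping genes. The cause of these shifts was not tested. The replicate number as a block gave 9 genes and left the factors unpassed (adjusted p in limma 0.311 for Nr5a2, 0.501 for Cebpb, 0.463 for Foxo1, 0.345 for Ppara, 0.744 for Hnf4a). Same-numbered mice correlated at −0.24 to 0.18 in their deviations, and 1 of 6 correlated best with its own number, so the samples share only a number.

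Of 434 values of other named genes under the alternatives, 10 reversed. The settings that could not change a sign are counted here too. Cebpa was 0.028 and Crp 0.048 without normalisation between arrays (0.030 and 0.051 with the failed spots also left out), and 0.029 and 0.049 with median scaling. Apoa1 was −0.019 with housekeeping scaling (−0.021 with the failed spots also left out). Without 1 mouse Crp ran from −0.16 to 0.016 (positive without HFD replicate 1) and Pnpla2 from −0.41 to 0.0062 (positive without HFD replicate 6). Dim spots limit Nr5a2, Foxo1 and Hnf4a, whose foreground was as low as 1.81, 1.35 and 1.08 times background.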
